A study of Trachemys scripta with 24 samples.

Results

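The early plasma response of pond sliders (Trachemys scripta) to gonadectomy was described by comparing 8 small RNA libraries made from plasma taken 2.5 h after surgery (T1) with 8 made from plasma taken 24 h before it (T0), which are 16 of the 24 libraries of the series. The members are the microRNA (miRNA) entries named after the painted turtle, Chrysemys picta (prefix cpi), counted once each. There are 528 such entries among the 1994 of the deposited table, and they fall into 154 families when letter, copy number and arm are removed from the name. Libraries were chosen by the labelled time point and entries by their prefix, so no measured value decided membership. All animals were clinically healthy, sexually mature females. At T0 they had not been operated on. At T1 they had been anaesthetised with dexmedetomidine, ketamine, midazolam and alfaxalone, had lost their ovaries through an endoscope-assisted incision in front of the hind limb, and had received atipamezole and flumazenil as reversal agents. Food was withheld before surgery, starting before the T0 sample. Anaesthesia, oxygen ventilation, tissue injury, loss of the ovary, time since food was withheld and the passage of time therefore differ between T0 and T1. They differ together, and their parts cannot be told apart. The same 8 turtles were sampled before and after surgery, so the groups are not independent. The labels do not name the turtle behind a library, so T1 was compared with T0 without pairing, and every p-value measures the spread between libraries and takes no account of the shared animals.

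MiRNAs are short RNAs that lower the output of messenger RNAs carrying matching sites, and those that share a seed near the 5′ end form a family with largely shared targets. In plasma they circulate inside vesicles or bound to proteins, and they also leave cells that are injured. In mammals several families come mostly from one tissue, such as mir-122 from hepatocytes, mir-1, mir-133 and mir-206 from striated muscle, mir-143 and mir-145 from smooth muscle, mir-126 from endothelium, mir-451 from red cells and mir-223 from myeloid cells. In a bulk plasma sample, RNA released by fewer cells of a type and less RNA released by each cell cannot be told apart. These origins are known from mammals and were taken as labels for lists of families, not as measurements in the turtle.

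The median total count on cpi entries was 128365.5 at T0 (41203 to 312589) and 125343 at T1 (34519 to 227789). On the log10 scale they averaged 5.04 ± 0.381 (SD, n = 8) at T0 and 5.03 ± 0.297 (SD, n = 8) at T1, a difference of -0.0064 (two-sided exact permutation test over all assignments of libraries to groups, p = 0.968). Between 261 and 414 entries had a count in a T0 library, and between 272 and 415 in a T1 library. The minimum that 3 counts represent ran from 8.72 to 81.1 CPM (counts scaled to a common library size), so low entries were seen with very unequal precision. Intervals given below are 95% Wilson intervals and cover counting error only, since reads carried no molecular identifiers.

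The profile was dominated by a handful of families at both times. The 5 most abundant families, mir-99, mir-148, mir-425, let-7 and mir-122, took a median of 63.0% of the cpi counts at T0 (57.5% to 72.2%) and of 66.0% at T1 (48.8% to 75.5%). The largest single share at T0 was that of mir-99, a family with conserved hairpins beside let-7 and mir-125 in vertebrate genomes, with a median of 17.4% (8.14% to 21.2%). At T1 its median was 15.0% (11.6% to 25.6%). The let-7 family, which promotes differentiation across animals, was the steadiest of the 5, with a median of 9.69% (8.62% to 11.1%) at T0 and 9.48% (6.85% to 11.9%) at T1. Family shares sum all entries, and some entries appear to hold the same reads. In let-7, for instance, both let-7b arms held nearly equal counts, 31173 and 31185. Shares and ranks of such families may therefore be too high. The mir-122 share was the least steady, as a group of libraries at both times carried far more of it than the others.

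**Figure D1:**
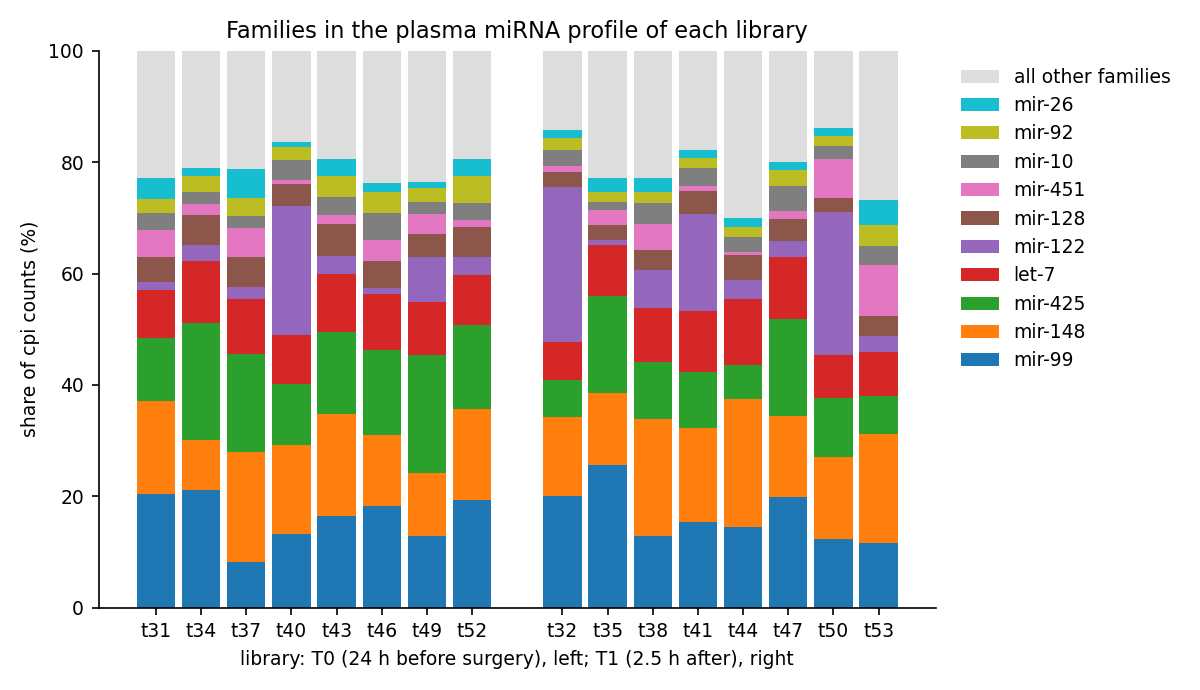
Share of cpi counts (%) taken by the 10 most abundant families in each of the 16 libraries, one stacked bar per library, T0 on the left and T1 on the right. The mir-122 segment reaches 27.8% in the T1 library t32 and 23.1% in the T0 library t40, while let-7 stays between 6.85% and 11.9% everywhere. Segments of families whose entries appear to share reads, such as let-7, may be too large.

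Families of blood cells were read in each library, although their presence cannot tell plasma from plasma that carries blood cells. The red cell family mir-451 made up 0.706% to 5.30% of the counts at T0 and 0.503% to 9.03% at T1. The myeloid family mir-223 made up 0.50% to 1.96% at T0 and 0.427% to 2.61% at T1. Both were therefore present in every library of both groups. The ovarian family mir-202 had 15 counts in all T0 libraries together and 23 in all T1 libraries, too few to pass the filter, and it was not tested.

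The arm in a name, 5p or 3p, was read only as the label the table gives. The table marks 12 of the 528 entries, all of them let-7, as taken from miRBase, and gives the other 516 a different mark. Among 88 hairpins with at least 100 counts whose more abundant arm is well known from other vertebrates, 81 had no miRBase mark on either arm, and in 76 of these the entry named for the other arm held more counts. In the 4 hairpins with the miRBase mark on both arms, the known arm held more counts in all 4. The entry cpi-mir-143-5p, for instance, held 4344 counts against 93 on cpi-mir-143-3p, although 3p is the abundant arm of mir-143 in mammals. Arms were therefore also summed, and each family was tested as 1 count per library. The let-7b entries of both arms held nearly the same counts, 31173 and 31185, so one set of reads appears to stand in both, and let-7 was also fitted without such pairs.

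Of the 528 entries, 182 passed the filter on low counts, and they held 98.6% to 99.6% of the counts of each library. Entry levels below are CPM scaled by the trimmed mean of M values (TMM), which sets the libraries on one scale when a few miRNAs take unequal shares. Of the entries tested, 103 were higher at T1 and 79 lower, with a median log2 fold change of 0.06 and a range from -1.40 to 2.33. The change was under 0.5 in size for 125 entries and at least 1 for 22, of which 16 were higher and 6 lower at T1. To be called, an entry needed an adjusted p no higher than 0.1 and a log2 fold change of 1 or more in either direction, by edgeR's quasi-likelihood test with Benjamini-Hochberg adjustment. Of the 182 entries, 1 was called, cpi-mir-92b-5p, which is 0.549% of those tested. At an unadjusted p of at most 0.05 there were 11 entries higher at T1, or 6.04%, and 9 lower, or 4.95%, and without TMM there were 8 higher and 11 lower. With the limit on the fold change as well, 11 entries remained, again 6.04%, 9 of them higher. DESeq2 (Wald test, Benjamini-Hochberg adjustment) called 4 of the same 182 entries, cpi-mir-92b-5p, cpi-mir-143-5p, cpi-mir-145-3p and cpi-mir-203-5p, and with no filter before it called cpi-mir-92b-5p alone. For the other 3 entries DESeq2's adjusted p was 0.0509 on the filtered entries and between 0.161 and 0.283 with no filter. In no entry did the T0 and T1 libraries separate without overlap.

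**Figure D2:**
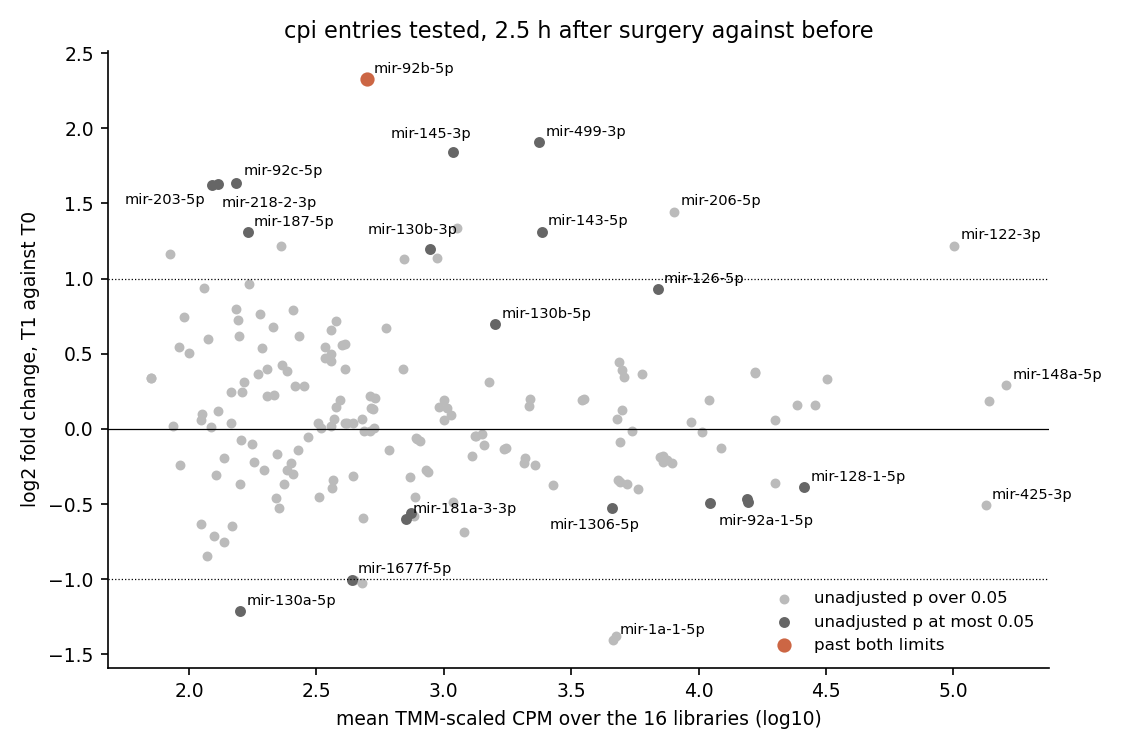
Each of the 182 cpi entries tested, with the log10 of its mean TMM-scaled CPM over the 16 libraries across and the log2 fold change of T1 against T0 up, shaded by unadjusted p and by call. Only mir-92b-5p at 2.33 lies past both limits, and among the abundant entries on the right mir-122-3p stands at 1.22 and mir-425-3p at -0.51.

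Summed over families, 91 of 154 passed the filter, 51 were higher at T1 and 40 lower, and the median log2 fold change was 0.13. By edgeR's quasi-likelihood test 0 families were called, or 0%, and the smallest adjusted p was 0.190, for mir-145. At an unadjusted p of at most 0.05 there were 7 families higher at T1, or 7.69%, and 3 lower, or 3.3%, and without TMM there were 5 higher and 5 lower. With the fold change limit 4 families remained, or 4.4%, all higher. DESeq2 called 2 families, mir-145 and mir-143, both among the same 91 families and among all 154 with no filter before it. Without TMM the median over families moved from 0.13 to 0.00099, and no call changed. Of everything described below, cpi-mir-92b-5p alone passed edgeR's limits with all 16 libraries, and higher and lower otherwise refer to fitted values that did not pass. From the sequencing counts, the study itself reported a longer list of miRNAs higher at T1 than was called here. It used DESeq2 with the same limits, on the entries of all species. Its list held every entry that DESeq2 called here and others, among them miR-499-3p. Why the lists differ in length was not tested. The study also measured some of the miRNAs described below by quantitative PCR, scaled to a spike-in, in the same turtles and others. In that assay miR-92b-5p did not change significantly, and miR-143-5p, miR-187-5p and miR-218-2-3p could not be quantified. Against T0, miR-499-3p was significantly higher at T1. The study describes miR-203-5p as lower at T1, and significantly lower only later. Assays and entries are matched here by name alone. Given the arm names described above, whether both measure the same arm is not settled.

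The entry cpi-mir-92b-5p was higher at T1 in the sequencing counts. It belongs to the mir-92 family, whose mir-92a members lie in the mir-17-92 cluster and its copies in vertebrates and take part in blood vessel and blood cell growth. Before surgery its level was 63.9 CPM in the lowest library, 195 in the median and 227 in the highest. After surgery it was 217 in the lowest, 539 in the median and 3391 in the highest, which was t32. All 8 T1 libraries lay above the T0 median and 7 lay above the highest T0 library, so the groups overlapped through a single T1 library, t53. The log2 fold change was 2.33 (SE 0.53, adjusted p = 0.0580 by edgeR's quasi-likelihood test). These levels rest on few reads, 178 counts in all T0 libraries and 819 in all T1 libraries, 425 of them in t32. Without t32 the log2 fold change was 1.54 and the call held (adjusted p = 0.0522). The call was lost without the T0 libraries t31 (adjusted p = 0.116), t37 (0.157) or t43 (0.126), and when the entries of all species were adjusted together (0.238), with log2 fold changes between 2.21 and 2.31.

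The members of the mir-92 family differed in direction. The abundant entries cpi-mir-92a-1-5p and cpi-mir-92a-2-5p were lower at T1, with log2 fold changes of -0.49 (SE 0.21, adjusted p = 0.331) in both. The level of cpi-mir-92a-1-5p was 13128, 17729 and 25828 CPM in the lowest, median and highest T0 library and 9441, 12689 and 18121 in the same order at T1. For cpi-mir-92a-2-5p, 7 of 8 T1 libraries lay below the T0 median and 6 below the lowest T0 library. The 2 hairpins give the same mature miRNA in mammals, so they are not independent of each other. A further member, cpi-mir-92c-5p, was higher by 1.64 (SE 0.67, adjusted p = 0.331), and by 0.99 without t32, from 89 counts at T0 and 229 at T1. Because mir-92a supplied most reads, the family as a whole stood at -0.42 (SE 0.19, adjusted p = 0.379), between -0.49 and -0.39 when single libraries were left out. Its relative mir-363, which shares the seed, stood at -0.19 (SE 0.27).

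**Figure D3:**
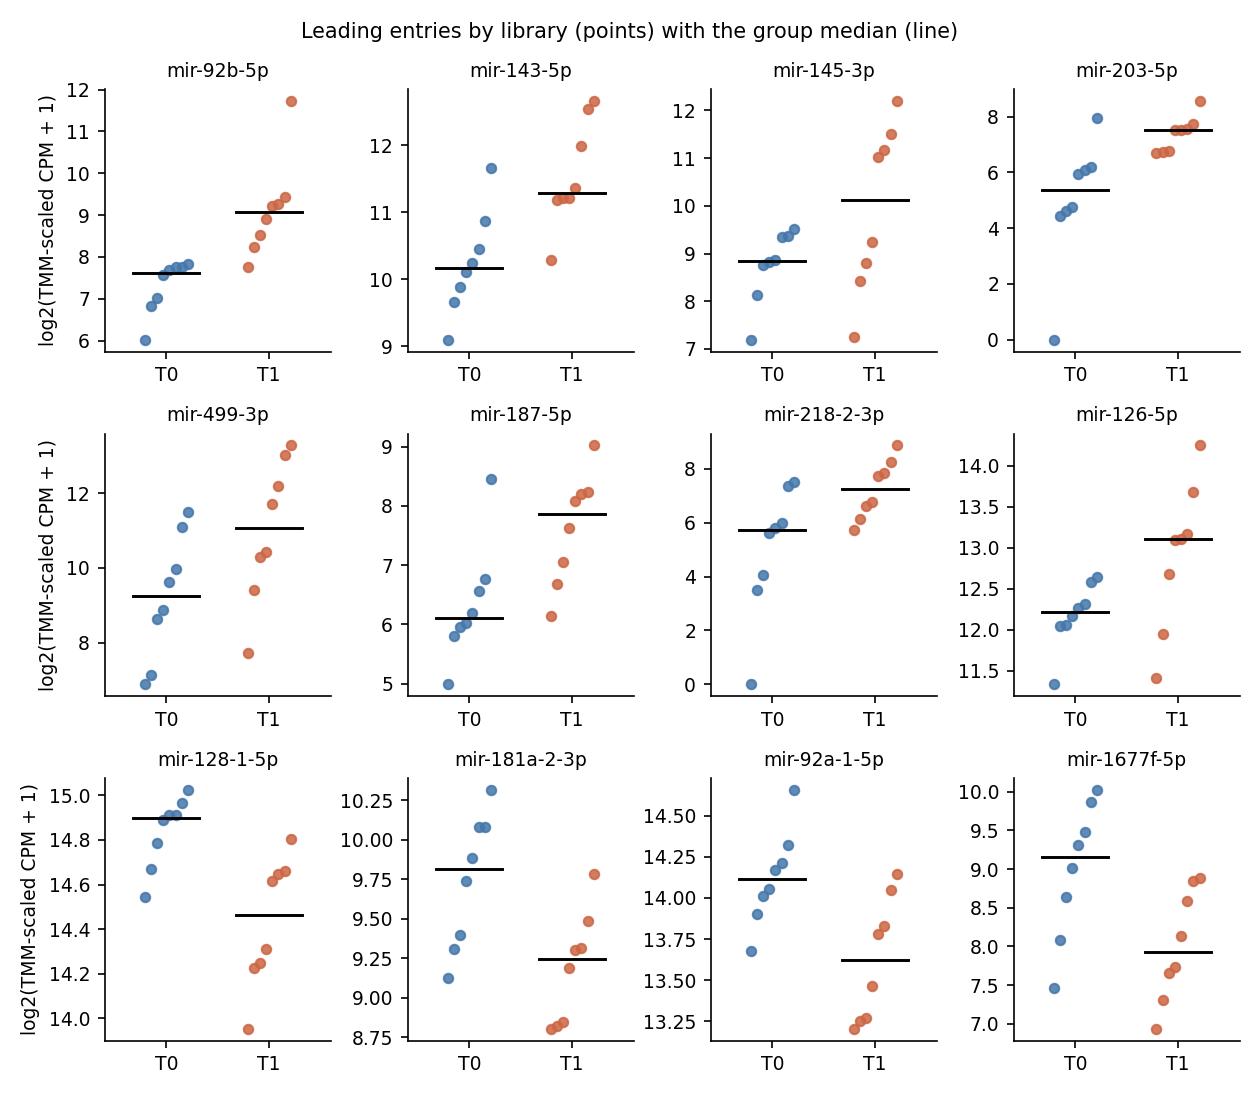
Levels of 12 entries as log2(TMM-scaled CPM + 1), one point per library, T0 in blue and T1 in orange, with a line at the median of each group of 8. The upper 8 panels are entries higher at T1, the lowest row those lower at T1, and in each panel some T1 libraries overlap the T0 libraries.

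The smooth muscle pair mir-143 and mir-145, made from one transcript in mammals, was higher after surgery in level, and both families were called by DESeq2 but not by edgeR. All 3 of their entries tested were higher at T1, with a median log2 fold change of 1.31 against 0.06 over all entries tested. The entry cpi-mir-143-5p stood at 546, 1154 and 3253 CPM in the lowest, median and highest T0 library and at 1251, 2513 and 6495 at T1. All 8 T1 libraries lay above the T0 median, while 3 lay above the highest T0 library, t49. Its log2 fold change was 1.31 (SE 0.39, adjusted p = 0.316). That of the family was 1.35 (SE 0.41, adjusted p = 0.204), with 1.28 and an adjusted p of 0.0525 by DESeq2 on the same families and of 0.0950 by DESeq2 with no filter. Without t49 the family passed edgeR's limits (1.61, adjusted p = 0.0694), and also without the T1 library t53 (1.48, adjusted p = 0.0844).

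Its partner was less even across libraries. The entry cpi-mir-145-3p stood at 145.2, 459 and 733 CPM at T0 and at 151, 1339 and 4704 at T1. Of the T1 libraries, 4, namely t32, t35, t50 and t53, lay above every T0 library, while 3 others lay below the T0 median. The log2 fold change of this entry was 1.84 (SE 0.58, adjusted p = 0.316), and it ranged from 1.45 without t50 to 2.03 without t41. Summed over both arms, mir-145 lay above the T0 median in all 8 T1 libraries, with 306, 678 and 941 CPM at T0 and 705, 1396 and 5108 at T1. Its log2 fold change was 1.63 (SE 0.45, adjusted p = 0.190), and 1.64 with an adjusted p of 0.0362 by DESeq2 on the same families and of 0.0614 by DESeq2 with no filter. The other entry, cpi-mir-145-5p, was higher by 0.79 (SE 0.42).

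Striated muscle families were uneven across libraries. The family mir-499, which lies within a myosin heavy chain gene in vertebrates, was higher at T1, with 119, 650 and 2639 CPM at T0 and 219, 2163 and 9910 at T1. Of the T1 libraries, 7 lay above the T0 median and 4 above the highest T0 library. The first count depended on the scaling, as the unscaled share in t50, 0.0483%, lay below the T0 median of 0.0711%. The family's log2 fold change of 2.02 (SE 0.75, adjusted p = 0.327) was the highest of any family tested, and its entry cpi-mir-499-3p stood at 1.91 (SE 0.75, adjusted p = 0.331). The highest levels of this entry were those of t44 (9968 CPM) and t38 (8411 CPM), and its log2 fold change was 1.54 without t44 and 2.38 without the T0 library t40. Entries and families were scaled separately, so the level of an entry can exceed that of its family.

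The shares of the myocyte families mir-1, mir-133 and mir-206 spiked in single libraries, and no direction is read from their fitted values. The mir-1 share was 7.03% (6.81% to 7.26%) in t49 and 2.81% (2.74% to 2.88%) in t46 at T0, and 3.42% (3.27% to 3.58%) in t44 at T1, against at most 0.249% in the other T1 libraries. The mir-206 share was 6.93% (6.71% to 7.16%) in t44 and at most 0.967% in any other library. In all 3 the group medians ran against the fitted mean change. The mir-1 median was 287 CPM at T0 and 879 at T1, with 7 of 8 T1 libraries above the T0 median, while the log2 fold change was -1.36 (SE 1.41), or -3.75 without t44 and 0.14 without t49. The mir-133 median was 228 CPM at T0 and 633 at T1, with 6 of 8 T1 libraries above the T0 median, while the log2 fold change was -1.08 (SE 0.94), or 0.54 without t49. The mir-206 median was 3180 CPM at T0 and 2493 at T1, with 6 of 8 T1 libraries below the T0 median, while the log2 fold change was 1.49 (SE 0.92), or -0.38 without t44. DESeq2 gave 0.74 for mir-133 and -0.42 for mir-206. The list of 5 muscle families had 6 entries tested, 2 higher and 4 lower, where 79 of all 182 entries tested were lower. These entries are not independent, as the 5p entries of mir-1a-1 and mir-1a-2 held 6050 and 6147 counts. The heart family mir-208 had 13 counts at T0 and 6 at T1 and was not tested.

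**Figure D4:**
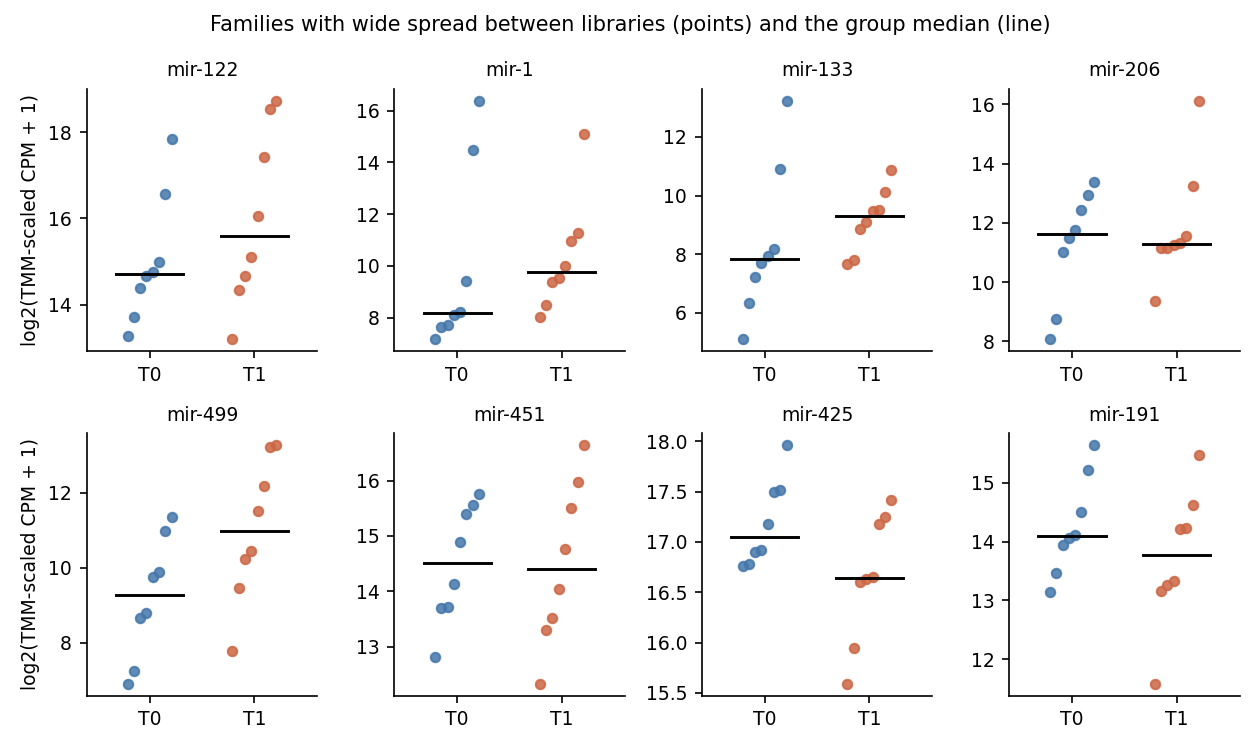
Summed levels of 8 families with wide spread between libraries, as log2(TMM-scaled CPM + 1), one point per library, T0 in blue and T1 in orange, with a line at the median of each group of 8. Single libraries carry mir-1, mir-133 and mir-206. In mir-499, 7 of 8 T1 points lie above the T0 median, and the same count holds for mir-1.

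The liver and gut list had 5 entries tested, all with fitted values higher at T1, where 103 of all 182 entries tested were higher. Their median log2 fold change was 0.37, and none passed the limits. The copies cpi-mir-194-1-3p and cpi-mir-194-2-3p held close counts, 8979 and 9257, so the 5 entries are not independent. The largest difference was that of mir-122, the main miRNA of hepatocytes, which supports lipid metabolism in mammals. Its share was 27.8% (27.6% to 28.0%) in t32, 25.7% (25.5% to 25.9%) in t50, 17.5% (17.3% to 17.8%) in t41 and 6.86% (6.60% to 7.13%) in t38 at T1. At T0 it was 23.1% (22.7% to 23.5%) in t40 and 8.04% (7.80% to 8.28%) in t49, and the remaining libraries of both groups lay between 0.923% and 3.44%. High libraries thus occurred before and after surgery. The log2 fold change of cpi-mir-122-3p was 1.22 (SE 0.80, adjusted p = 0.672), and it ranged from 0.76 without t32 to 2.21 without t40. The gut and liver families mir-192 and mir-194 stood at 0.33 (SE 0.43) and 0.18 (SE 0.28). Their median shares went the other way, from 0.556% at T0 to 0.464% at T1 for mir-192 and from 0.695% to 0.595% for mir-194. With mir-122 left out of all totals, 12 entries were higher and 4 lower at an unadjusted p of at most 0.05, against 11 and 9 with it, and the call of cpi-mir-92b-5p held (adjusted p = 0.0337).

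Epithelial families went different ways. In mammals mir-203 drives keratinocytes out of the cell cycle, and mir-205 marks the basal layer of the skin. The entry cpi-mir-203-5p stood at 0, 43.6 and 243 CPM at T0 and at 101, 182 and 377 at T1, with all 8 T1 libraries above the T0 median and 1 above the highest T0 library, t40. It had 64 counts in the T0 libraries and 165 in the T1 libraries, so single libraries held between 0 and 41. Its log2 fold change was 1.62 (SE 0.57, adjusted p = 0.331), and without t40 it passed the limits at 2.16 (adjusted p = 0.0499). The family mir-203 as a whole stood at 0.98 (SE 0.46), its other arm having 53 counts at T0 and 24 at T1. By contrast cpi-mir-205a-3p was lower, with all 8 T1 libraries below the T0 median of 1031 CPM and a log2 fold change of -0.58 (SE 0.31, adjusted p = 0.553). The family mir-205 stood at -0.50, and its unscaled share in t53, 0.112%, lay above the T0 median of 0.108%. The mir-200 family, which maintains epithelial junctions, stood at 0.19 (SE 0.40).

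Among endothelial families, mir-126, which supports vessel integrity in vertebrates, was higher, while mir-221 and mir-222 stood near 0. The entry cpi-mir-126-5p was at 2582, 4748 and 6379 CPM at T0 and at 2723, 8798 and 19409 at T1. In this entry 6 of 8 T1 libraries lay above the highest T0 library and the other 2, t35 and t53, below the T0 median. These positions depended on the scaling. In unscaled shares of the family, t32 (0.576%) and t50 (0.466%) lay below the highest T0 share of 0.684%, and t50 also below the T0 median of 0.513%. The log2 fold change of the entry was 0.93 (SE 0.33, adjusted p = 0.331), and 1.09 without t53, where the entry passed the limits (adjusted p = 0.0998). The family passed there too (1.09, adjusted p = 0.0844), while with all libraries it stood at 0.95 (SE 0.34, adjusted p = 0.327). The families mir-221 and mir-222, which share a seed, stood at -0.0048 (SE 0.35) and -0.14 (SE 0.30).

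The white cell list had 5 entries tested, all of mir-142 or mir-223. All had fitted values lower at T1, where 79 of all 182 entries tested were lower. Their median log2 fold change was -0.49, and none passed the limits. The listed family mir-150 had no cpi entry. The 5p entries of mir-142-1 and mir-142-2 held 324 and 319 counts, so entries of this family are not independent. The haematopoietic family mir-142 stood at 789, 1712 and 3421 CPM at T0 and at 701, 1122 and 2115 at T1, with 7 of 8 T1 libraries below the T0 median and a log2 fold change of -0.62 (SE 0.32, adjusted p = 0.452). The myeloid family mir-223 stood at -0.14 (SE 0.36), or 0.041 without the T0 library t31. In it 6 of 8 T1 libraries lay below the T0 median and 2, t35 and t50, above every T0 library. In mammals mir-451 and mir-144 come from one transcript of erythroid cells, and here they stood at 0.31 (SE 0.56) and -0.23 (SE 0.58). The level of cpi-mir-451-3p spanned 7811 to 54331 CPM at T0 and 5166 to 99905 at T1, so its log2 fold change of 0.33 (SE 0.55) was small beside the spread.

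Families induced in activated immune cells of mammals had small differences in either direction. The values were 0.23 (SE 0.32) for mir-21, 0.15 (SE 0.21) for mir-146, which restrains inflammatory signalling, and -0.22 (SE 0.63) for mir-155. Of their 5 entries tested 3 were higher and 2 lower, between -0.27 and 0.22, where 103 of all 182 entries tested were higher. The mir-21 level was 7098, 8623 and 17773 CPM at T0 and 5972, 9482 and 24430 at T1, a wide overlap. The hypoxia-induced family mir-210 stood at -0.28 (SE 0.38), with 271, 1074 and 1927 CPM at T0 and 222, 872 and 1675 at T1.

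Among neural families the abundant mir-128 was lower at T1, and mir-218, a family of few reads, was higher. The family mir-128, rich in the mammalian brain and here also a main plasma family, had a median share of 4.97% at T0 and 3.55% at T1. All 8 T1 libraries lay below the T0 median and 4 below the lowest T0 library, at a log2 fold change of -0.39 (SE 0.16, adjusted p = 0.327). Its entries cpi-mir-128-1-5p and cpi-mir-128-2-5p stood at -0.39 (SE 0.17) and -0.46 (SE 0.18), each with an adjusted p of 0.331. The first was at 23908, 30558 and 33331 CPM at T0 and at 15853, 22717 and 28586 at T1, and the second at 14779, 17883 and 21902 against 9586, 13421 and 16350. Their standard errors were well below the median of 0.43 over all entries tested. The family mir-218, which marks motor neurons in mammals, was higher by 1.56 (SE 0.64, adjusted p = 0.327). It rested on 124 counts at T0 and 252 at T1, and its entry cpi-mir-218-2-3p was at 0, 51.6 and 183 CPM at T0 and at 52.04, 159 and 466 at T1, with a log2 fold change of 1.63 (SE 0.66, adjusted p = 0.331). Of the others, mir-7 stood at 0.50 (SE 0.27), mir-219 at 0.69 (SE 0.45) and mir-9 at -0.15 (SE 0.65).

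Several families without a single tissue of origin were also among the lower ones. The mir-181 family, which tunes lymphocyte receptor signalling in mammals, was below the T0 median in all 8 T1 libraries, with 2357, 3651 and 4622 CPM at T0 and 2089, 2836 and 3208 at T1. In unscaled shares, however, t47 (0.376%) and t53 (0.408%) lay above the T0 median of 0.364%. The log2 fold change of the family was -0.38 (SE 0.18, adjusted p = 0.421). Of its 7 entries tested 6 were lower, against 79 of all 182 entries tested, but they are not independent. The 3p entries of mir-181a-1, mir-181a-2 and mir-181a-3 held 1921, 1873 and 1782 counts. Those of mir-181b-1, mir-181b-2 and mir-181b-3 held 615, 582 and 621. The nearly identical copies cpi-mir-181a-2-3p and cpi-mir-181a-3-3p stood at -0.56 (SE 0.24) and -0.60 (SE 0.26), with adjusted p = 0.331 for each. In mir-1306, which lies in a gene for miRNA processing in mammals, the entry cpi-mir-1306-5p stood at -0.52 (SE 0.23) and the family at -0.50 (SE 0.20, adjusted p = 0.327), with 6 T1 libraries below every T0 library in the family sum. The entry cpi-mir-1677f-5p was below the T0 median in all 8 T1 libraries, at 176, 573 and 1039 CPM before and 122, 246 and 473 after, a log2 fold change of -1.002 (SE 0.39, adjusted p = 0.331). The abundant cpi-mir-425-3p stood at -0.51 (SE 0.25, adjusted p = 0.483), with 5 of 8 T1 libraries below the lowest T0 library.

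The mir-130 family divided by member. The entry cpi-mir-130a-5p was lower, with 54.1, 155 and 556 CPM at T0, 40.5, 66.6 and 194 at T1 and a log2 fold change of -1.21 (SE 0.48, adjusted p = 0.331). The entry cpi-mir-130b-5p was higher by 0.69 (SE 0.28, adjusted p = 0.331), with 896, 1069 and 1892 CPM at T0 and 1022, 2084 and 3140 at T1. As mir-130b held most of the reads, the family sum was higher by 0.75 (SE 0.32, adjusted p = 0.355). The level of mir-187 was also higher. Its entry cpi-mir-187-5p was at 30.8, 68.3 and 351 CPM at T0 and at 69.4, 234 and 519 at T1. All 8 T1 libraries lay above its T0 median, the log2 fold change was 1.31 (SE 0.51, adjusted p = 0.331), and without t40 it passed the limits at 1.86 (adjusted p = 0.0499). It rested on 86 counts at T0 and 215 at T1. The family as a whole stood lower, at 0.96, and ranged from 0.71 without t32 to 1.25 without t40. Its unscaled share in t50, 0.0053%, lay below the lowest T0 share of 0.0065%.

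The large seed families of the plasma profile had small differences. The most abundant entry, cpi-mir-148a-5p, was at 81277, 148790 and 201327 CPM at T0 and at 122584, 174717 and 234363 at T1, a log2 fold change of 0.29 (SE 0.20, adjusted p = 0.672). The entry cpi-mir-99a-3p stood at 0.19 (SE 0.24, adjusted p = 0.883), and mir-100, with the same seed, at 0.49 (SE 0.27). The let-7 family stood at 0.09 (SE 0.16) and at -0.03 without TMM, so its direction depended on the scaling, and its relative mir-98 stood at 0.16 (SE 0.28). Of the 15 let-7 and mir-98 entries tested 9 were higher and 6 lower, between -0.40 and 0.38, where 103 of all 182 entries tested were higher. They are not independent, as the 3p entries of let-7a-1 and let-7a-3 held 11710 and 11737 counts. The Hox cluster family mir-10, the mir-125 family and the mir-29 family stood at 0.16 (SE 0.22), 0.25 (SE 0.29) and 0.28 (SE 0.31).

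The remaining listed families lay within 2 standard errors of 0. The mir-17-92 relatives mir-17, mir-106 and mir-20 stood at 0.38 (SE 0.65), 0.50 (SE 0.53) and -0.01 (SE 0.44), and mir-18 at 0.06 (SE 0.48). In mir-15 and mir-16, which share a seed and slow the cell cycle in mammals, the values were -0.32 (SE 0.37) and 0.40 (SE 0.36). The clustered families mir-23, mir-24 and mir-27 stood at -0.06 (SE 0.29), 0.06 (SE 0.24) and -0.16 (SE 0.27). The values of mir-30, mir-26, mir-101 and mir-22 were -0.03 (SE 0.25), -0.21 (SE 0.34), 0.00074 (SE 0.34) and -0.15 (SE 0.26). The family mir-152 stood at 0.34 (SE 0.52). The value of mir-103, 0.76 (SE 0.55), rested on the T1 library t35, which held 1435 CPM against at most 478 in any other T1 library, and it was 0.054 without t35. The signs of mir-18, mir-24, mir-101 and mir-20 changed under at least 1 other scaling of the libraries, so no direction is read from them. The median standard error over families was 0.38, and a p above the limit does not show that a family did not differ.

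**Figure D5:**
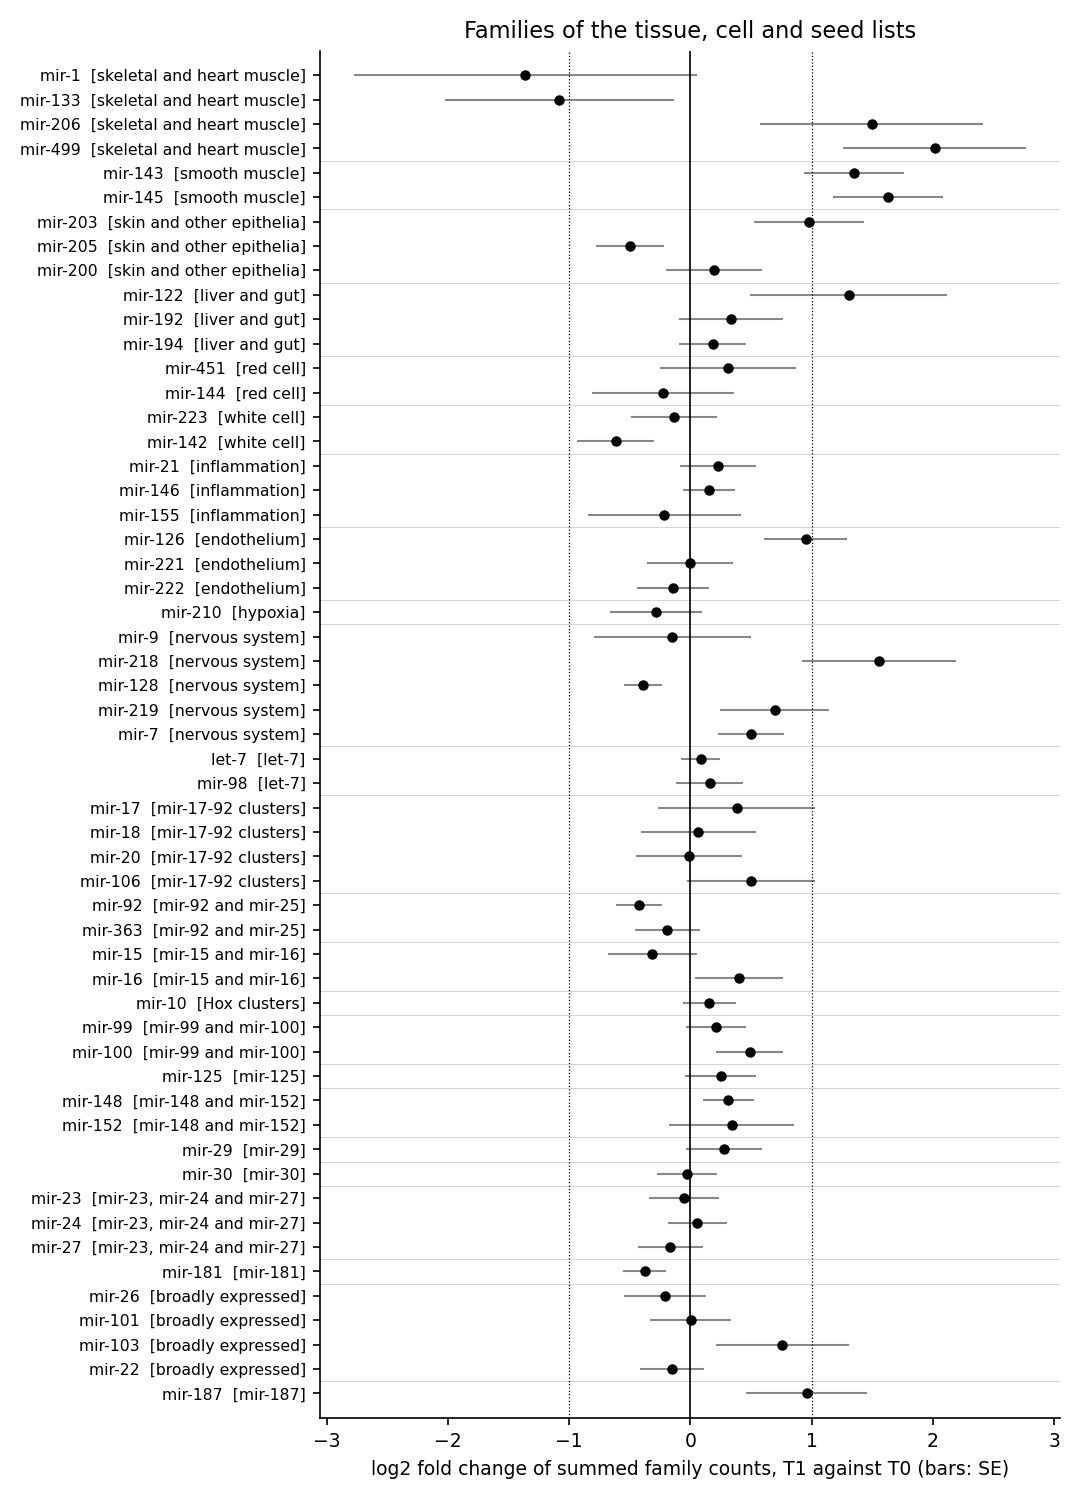
Log2 fold change of the summed counts of each listed family that passed the filter, T1 against T0, with bars of 1 standard error and the list in brackets. The smooth muscle pair stands at 1.35 and 1.63 and mir-499 at 2.02, while most seed families lie within 0.5 of 0.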

How the data were processed

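Plasma small RNA from 8 T0 and 8 T1 libraries was analysed. The authors clipped adapters with Cutadapt (maximum error rate 0.15), dropped reads under 14 nt and aligned the rest with BWA 0.7.12 to miRBase 22.0 precursors of 4 saurian species. The deposited values are read counts of each mature entry, whole numbers that were not normalized. One and the same read may add to entries of more than 1 species, and cpi entries held 25.3% of the counts of all entries in the T0 and T1 libraries. Each entry stands in 2 rows with equal counts, of which 1 was used. Slider reads were mapped to painted turtle sequences, so base differences between the species can lower a count. The labels name an extraction kit other than the one the study selected, and which kit made these libraries is not given in the sources used here. Sequences of the miRNAs were not used here.

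Counts were filtered (filterByExpr), scaled by TMM and tested with the quasi-likelihood test of edgeR 4.0.16 in R 4.3.3, on T0 and T1 alone, with Benjamini-Hochberg adjustment over the entries, or families, kept. The limits are those of the study. CPM are TMM-scaled, separately for entries and for families, so entry and family CPM are not on one scale. Shares are of unscaled cpi counts. Totals were compared by an exact permutation test with scipy 1.17.1. Other software was DESeq2 1.42.0, Python 3.11.15, numpy 2.4.6, pandas 2.3.3 and matplotlib 3.10.9. The code of the fit was tried on simulated counts. These had independent libraries, the same dispersion for every entry and only large changes, so they do not show how the fit performs on these data. Total cpi counts per library of 34519 to 312589 and a common dispersion of 0.442 set the precision.

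The entries named are those called, the 10 with the smallest p in each direction and the 5 most abundant. The families named are the 5 with the smallest p in each direction and every listed family that passed the filter. Others were named after their values were seen. The members and lists were chosen with earlier results of these data known. Alternatives were all 24 libraries in one model, DESeq2 with no filter before it, its size factors, no TMM, no filter, at least 10 counts in 8 libraries, a robust fit, no fold limit, all species, and each library left out. Leaving out let-7 entries counted under both arms, or mir-122, and DESeq2 on the filtered counts were chosen after the data were seen.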

Additional observations from a re-analysis of the deposited data

Results flagged for a closer look

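Within a group of 8 libraries, a library was set apart when the gap to its nearest neighbour exceeded Dixon's 95% limit, as a share of the group's range on the log2(CPM + 1) scale. This held in 17 of 162 groups, where chance alone sets apart about 1 group in 20, and entries of a family share reads with it. The groups were the named entries and families at each time, and the total count at each time. The totals were read on the log10 scale and set no library apart. No explanation was tested for any of these libraries.

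At T0 the lowest library stood apart in cpi-mir-203-5p (t52, 0.56 of the range), cpi-mir-126-5p (t37, 0.546), cpi-mir-92c-5p (t40, 0.537), cpi-mir-99a-3p (t37, 0.709), mir-99 (t37, 0.536), mir-218 (t49, 0.601) and mir-200 (t49, 0.554). The highest T0 library stood apart in mir-92 (t52, 0.53) and mir-9 (t34, 0.536). At T1 the highest library stood apart in cpi-mir-92b-5p (t32, 0.582) and in mir-1 (t44, 0.54). The lowest T1 library stood apart in mir-146 (t41, 0.567), mir-210 (t44, 0.532), mir-17 (t44, 0.59), mir-15 (t44, 0.589), mir-106 (t38, 0.695) and let-7 (t53, 0.655). The library t44 was set apart in 4 groups, t37 in 3, and t49 and t52 in 2 each. Some of these lowest libraries lay at the floor. No count was held by t52 for cpi-mir-203-5p, t49 for mir-218, t44 for mir-17 or t38 for mir-106. The level of mir-15 in t44 was 20.1 CPM, where 3 counts stood for 60.8 CPM.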

How the results depend on the processing

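No paired analysis was possible because, although the same 8 turtles gave both groups, the labels do not name the turtle behind a library, and replicate names are not shared between T0 and T1. The log2 fold changes of 24 entries and 56 families and their calls were recomputed under 11 other settings and with each library left out. Of 2147 values, 2030 kept their direction and their side of the limits. The number of entries called was 1 under every setting except 0 with all species and 4 by DESeq2 on the entries that passed the filter, and ranged from 0 to 3 when single libraries were left out. For families it was 0 under every setting except 2 by DESeq2, both with no filter before it and on the families that passed the filter, and ranged from 0 to 2 when single libraries were left out. The difference in log10 total counts ranged from -0.0669 to 0.0641 when single libraries were left out, and the smallest of these p-values was 0.693 (exact permutation test). With no filter, 51 of 524 entries had an unadjusted p of at most 0.05 by edgeR's quasi-likelihood test, against 20 of 182 with the filter. The causes of these shifts were not tested.

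Signs changed in 25 results, none of which passed the limits under any setting. Leaving out single libraries gave a range across 0 for cpi-mir-451-3p (-0.051 to 0.55), mir-1 (-3.75 to 0.14), mir-133 (-1.43 to 0.54), mir-206 (-0.38 to 1.70), mir-200 (-0.071 to 0.32), mir-194 (-0.0031 to 0.40), mir-451 (-0.050 to 0.53), mir-144 (-0.66 to 0.026), mir-223 (-0.44 to 0.041), mir-21 (-0.023 to 0.38), mir-155 (-0.91 to 0.31), mir-221 (-0.22 to 0.13) and mir-222 (-0.35 to 0.0026). The same held for mir-9 (-0.61 to 0.74), let-7 (-0.022 to 0.17), mir-17 (-0.23 to 0.63), mir-18 (-0.20 to 0.21), mir-20 (-0.22 to 0.19), mir-125 (-0.0097 to 0.37), mir-30 (-0.21 to 0.076), mir-23 (-0.27 to 0.12), mir-24 (-0.19 to 0.18), mir-26 (-0.33 to 0.063) and mir-101 (-0.19 to 0.10).

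Among the other settings, DESeq2 with no filter gave 0.74 for mir-133, -0.42 for mir-206, -0.0048 for mir-18, 0.049 for mir-20 and -0.043 for mir-101, on the families that passed the filter it gave 0.74, -0.42, -0.020, 0.054 and -0.044 in the same order, and its size factors within edgeR gave 0.034 for mir-20 and -0.030 for mir-101. All 24 libraries in one model gave -0.046 for mir-18, -0.051 for mir-24 and -0.049 for mir-101. All species gave -0.035 for mir-98, -0.13 for mir-18 and -0.020 for mir-24. Without TMM the values were -0.035 for let-7, -0.061 for mir-18, -0.028 for mir-24 and -0.052 for mir-101. With no filter they were -0.056 for let-7, -0.011 for mir-98, -0.085 for mir-18, -0.13 for mir-24 and -0.16 for mir-101, and at least 10 counts in 8 libraries gave 0.00024 for mir-20. Without let-7 entries counted under both arms they were 0.0076 for mir-221 and 7.4e-05 for mir-20, and without mir-122 they were -0.028 for mir-24 and -0.072 for mir-101. Depth limits entries of few reads most, since 3 counts stood for up to 81.1 CPM.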

Other observations

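A few entries outside those named by rule had a log2 fold change of at least 1, and they were picked after their values were seen. The T1 library t44, which held the highest mir-206 share of the 16 libraries, also held the highest level of cpi-mir-2970-5p (8610 CPM, against at most 1269 elsewhere), cpi-mir-99b-5p (3849 CPM, against at most 1984), cpi-mir-219-2-5p (1702 CPM, against at most 331) and cpi-mir-383-5p (385 CPM, against at most 216). Their T1 medians were 563, 318, 68.9 and 79.7 CPM, beside T0 medians of 482, 360, 99.6 and 15.6. The level of cpi-mir-2188-3p fell into separate sets at T1, with 559 to 4402 CPM in t32, t35, t50 and t53 and 50.2 to 118 CPM in the other 4 libraries, while it ran from 216 to 1314 CPM at T0.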
